A study of Danio rerio with 72 samples.

Results

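PER2 (ENSDARG00000034503) and cry5 (ENSDARG00000019498) are described here across the brain tissues of stressed and unstressed zebrafish raised with or without fluoxetine. They are 2 of the 31902 entries of the count table, found by their identifiers and picked as genes known to be induced by light in zebrafish. They were chosen with earlier results of these data known, so their places by p-value below are descriptive. Both passed the filter on low counts in every tissue. PER2 encodes a period protein, a repressor in the feedback loop of the circadian clock. In zebrafish its transcription is switched on directly by light through enhancer elements in its promoter, which lets light set clocks in most tissues of the animal. In mice the gene also has a glucocorticoid response element, a sequence bound by the receptor for stress steroids. The entry cry5 belongs to the cryptochrome and photolyase family and carries the synonym z6-4phr in the gene table, the name of the zebrafish 6-4 photolyase, which uses light energy to repair ultraviolet damage in DNA. Whether the fish were sampled in the light or in the dark, and at which hour, is not given in the sources used here. The label "light-inducible" was therefore not checked against these data. Any difference in hour or light between stressed and unstressed groups could not be told apart from stress and was not tested. The same holds for fluoxetine against vehicle groups and for the interactions, where such a difference could not be told apart from the exposure. Wording such as "raised by stress" below means a difference between stressed and unstressed groups.

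All fish carried the SR4G transgene, a reporter whose short-lived green fluorescent protein (d4EGFP) is under the control of glucocorticoid response elements. In this text "fluoxetine" fish had been kept in 54 ug/L of this serotonin reuptake inhibitor during the first 6 days after fertilization, and "vehicle" fish in 0.0053% ethanol. Heads came from larvae 6 days old, pooled by 22, and hypothalamus and telencephalon from adults 6 months old, pooled by 5, long after the exposure had ended. The tissue label of the larval libraries says dissected heads, while their titles say "whole", and the word "heads" here follows the tissue label. Within each tissue there were fluoxetine stressed, fluoxetine unstressed, vehicle stressed and vehicle unstressed fish, 6 libraries each, which makes 12 groups and 72 libraries. Neither the stressor nor the delay before sampling is given in the sources used here. Whether pools with the same label had different parents or tanks is not stated, so p-values measure the spread between these pools, which may be technical. The labels also do not say whether hypothalamus and telencephalon pools came from the same fish.

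Library totals in mega-counts (M) were 10.2 to 19.9 M counts in larval heads, 13.2 to 22.8 M counts in the hypothalamus and 14.2 to 20.96 M counts in the telencephalon. The glucocorticoid target FKBP5, used as a check of the stress labels, lay between 419 and 1023 CPM (the count of a gene scaled to a common library size) in the stressed libraries and between 27.8 and 196 CPM in the unstressed ones, with no overlap. The reporter d4EGFP was separate between stressed and unstressed libraries in 5 of the 6 pairs of groups and overlapped in fluoxetine hypothalamus, with 51.8 to 194 CPM in stressed and 20.2 to 56.6 CPM in unstressed libraries. Markers of the telencephalon summed to 1053 to 1417 CPM in telencephalon libraries, against 94.99 to 689 CPM in hypothalamus libraries. The sums of the hypothalamus markers overlapped between both regions (382 to 994 CPM in the hypothalamus and 203 to 849 CPM in the telencephalon). Photoreceptor and pineal markers summed to 3554 to 11261 CPM in larval heads, which include the eyes, and to 12.3 to 3052 CPM in the adult regions. Some unstressed vehicle larval heads stood apart. Replicates 1 to 3 of that group had muscle markers summing to 23199 to 29991 CPM, against 4207 to 7597 CPM in replicates 4 to 6, and replicate 6 had PER2 and cry5 above the other 5. Neuron markers were lower in replicates 1 to 3, at 1509 to 2891 CPM against 3026 to 3890 CPM. Hypothalamus markers were lower there too, at 159 to 203 CPM against 254 to 261 CPM. Telencephalon markers overlapped, at 129 to 247 CPM against 244 to 339 CPM. The part of these markers in the results was not tested. Model comparisons of PER2 and cry5 that use the unstressed vehicle heads are given with and without replicate 6 and with and without replicates 1 to 3. For other genes and for gene lists, values that use this group are from the fit with all its libraries.

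PER2 was higher in stressed than in unstressed fish in every tissue and under both exposures, and cry5 was not. The mean PER2 level of the 12 groups ran over the 6 stressed groups first, with 329 ± 19.9 CPM in fluoxetine stressed telencephalon at the top and 164 ± 7.63 CPM in vehicle stressed larval heads at their end (SD, n = 6 each). The unstressed groups followed, with a highest mean of 151 ± 17.9 CPM in fluoxetine unstressed telencephalon and a lowest of 31.2 ± 9.74 CPM in fluoxetine unstressed larval heads. Neighbours in this order mostly overlapped. The library ranges were separate only between fluoxetine stressed larval heads (308 ± 8.90 CPM) and vehicle stressed hypothalamus (269.8 ± 16.9 CPM), and between fluoxetine stressed hypothalamus (223 ± 22.8 CPM) and vehicle stressed larval heads. For cry5 the 4 highest means belonged to fluoxetine stressed larval heads (21.5 ± 2.68 CPM), vehicle stressed hypothalamus (15.4 ± 1.28 CPM), vehicle stressed larval heads (11.2 ± 0.655 CPM) and vehicle stressed telencephalon (10.7 ± 1.46 CPM). Both stressed fluoxetine adult groups lay among the unstressed ones, at 4.62 ± 0.244 CPM in the hypothalamus and 3.32 ± 0.624 CPM in the telencephalon. From the fifth to the lowest mean (2.65 ± 0.760 CPM, vehicle unstressed telencephalon) every neighbour in the order of cry5 overlapped with the next and differed from it by less than the larger SD. CPM values are not scaled by gene length, so the levels of PER2 and cry5 are not compared with each other.

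**Figure D1:**
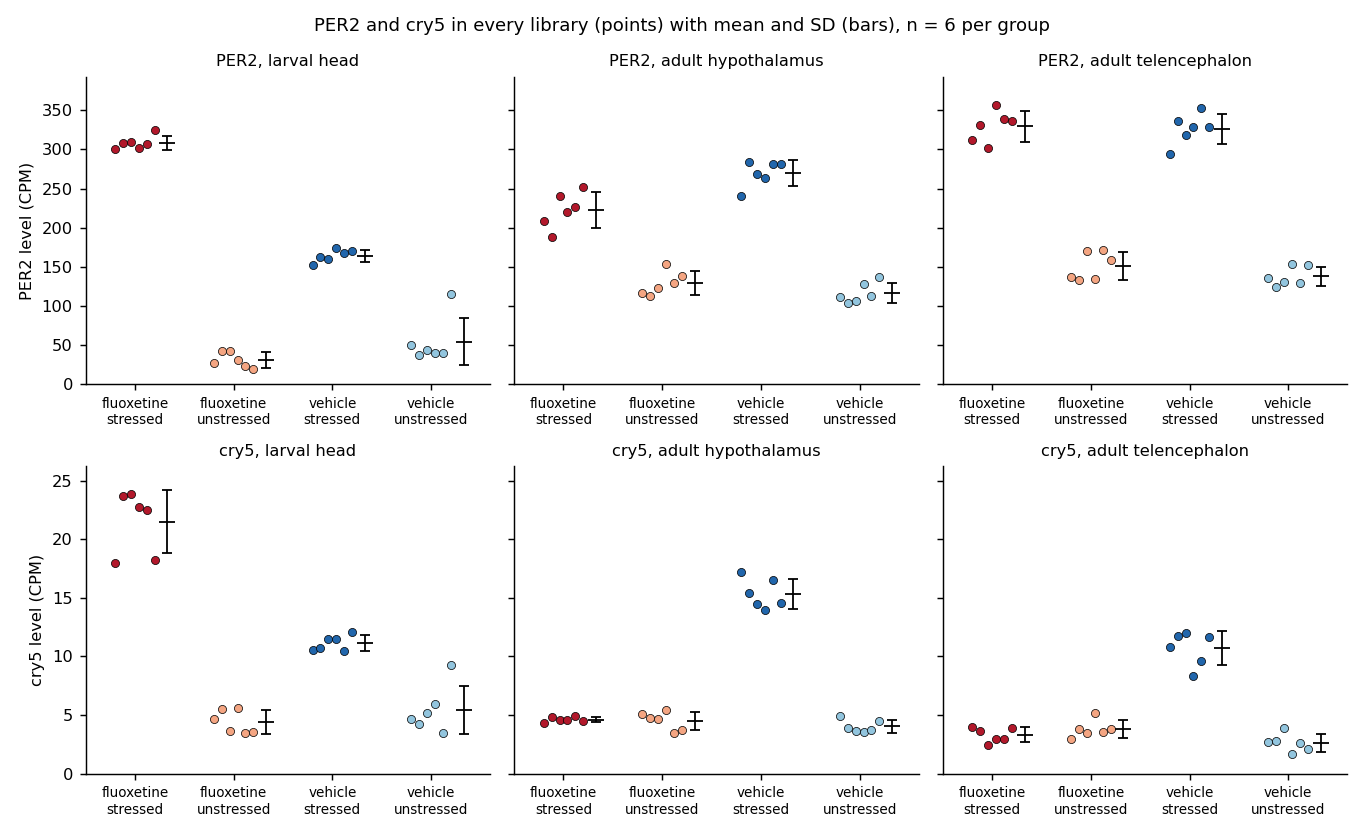
Level of PER2 (upper row) and cry5 (lower row) in CPM on linear axes starting at 0, with 1 point per library and the mean and SD of 6 libraries beside the points, for larval head, adult hypothalamus and adult telencephalon. Stressed libraries are high for PER2 in all panels, while cry5 is high in stressed larvae of both exposures and in stressed vehicle adults, and the stressed fluoxetine adults lie with the unstressed groups (means of 4.62 and 3.32 CPM).

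In larval heads of fluoxetine fish, stress gave the steepest rise of both genes. PER2 ranged from 300.4 CPM over a median of 307 to 325 CPM in fluoxetine stressed heads, against 19.9, 29.3 and 43.004 CPM (lowest, median, highest) in fluoxetine unstressed heads. The groups were far apart, and the stressed libraries lay within a narrow band, with an SD of 2.89% of the mean, against 31.2% in the unstressed ones. The fold was 9.82 (95% interval 6.94 to 13.9), a log2 fold change of 3.30 ± 0.24 (SE; edgeR quasi-likelihood test, adjusted p = 9.22e-09). cry5 ranged from 17.97 CPM over 22.7 to 23.8 CPM in fluoxetine stressed heads, against 3.504, 4.14 and 5.64 CPM in fluoxetine unstressed heads. Every stressed library exceeded every unstressed one, with replicates 1 and 6 of the stressed group below the other 4. Its fold was 4.84 (3.71 to 6.32), a log2 fold change of 2.28 ± 0.19 (SE; edgeR, adjusted p = 5.19e-08). By p-value PER2 stood in place 2 and cry5 in place 3 among the 20260 genes tested, of which 1.9% were called higher in this comparison. Photoreceptor and pineal markers (0 of 21 tested) and muscle markers (0 of 13) did not pass the threshold here.

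In larval heads of vehicle fish both genes also rose, by smaller folds. PER2 ran from 153 CPM over 165 to 174 CPM in vehicle stressed heads, against 38.1, 42.1 and 115 CPM in vehicle unstressed heads. The groups did not overlap, but replicate 6 of the unstressed group, at 115 CPM, lay far above its other libraries, which ended at 50.3 CPM. The fold was 2.96 (2.14 to 4.10), with a log2 fold change of 1.57 ± 0.23 (SE; edgeR, adjusted p = 7.44e-05). For cry5 the values were 10.49, 11.1 and 12.1 CPM in vehicle stressed heads, against 3.46, 4.92 and 9.30 CPM in vehicle unstressed heads. Again the groups were separate, and the 9.30 CPM came from the same replicate 6. Its fold was 2.02 (1.56 to 2.61), a log2 fold change of 1.01 ± 0.18 (SE; edgeR, adjusted p = 0.000749). Here 5.82% of the genes tested were called higher.

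Replicate 6 of the vehicle unstressed heads had the lowest FKBP5 (27.8 CPM) and d4EGFP (11.3 CPM) levels of its group, both transcripts being higher in stressed larval heads. Without it, PER2 was 3.81-fold higher (adjusted p = 6.52e-08) and cry5 2.36-fold higher (adjusted p = 9.29e-06) in vehicle stressed than in vehicle unstressed heads. Over all 24 ways to leave out 1 larval library the adjusted p reached 0.000366 for PER2 and 0.00257 for cry5. Muscle markers moved with this comparison: 10 of 13 were lower in vehicle stressed heads, with sums of 1662 to 11555 CPM against 4207 to 29991 CPM in vehicle unstressed heads. Over all genes tested 15.4% were called lower, 3123 of 20260, and without replicates 1 to 3 of the unstressed group 77. With those muscle-rich replicates left out, PER2 was 2.498-fold (adjusted p = 0.00699) and cry5 1.78-fold higher (adjusted p = 0.0319). Photoreceptor and pineal markers were higher for 6 of 21, summing to 5630 to 10467 CPM in stressed against 3554 to 11261 CPM in unstressed vehicle heads, and their part in the result was not tested. In pooled heads, fewer cells of a type and less RNA per cell cannot be told apart.

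Among stressed larvae, fluoxetine heads had more of both transcripts than vehicle heads. The ranges given above, 300.4 to 325 CPM in fluoxetine and 153 to 174 CPM in vehicle stressed heads for PER2, do not overlap, nor do those of cry5, 17.97 to 23.8 CPM in fluoxetine and 10.49 to 12.1 CPM in vehicle heads. PER2 was 1.90-fold higher (1.38 to 2.61; log2 0.92 ± 0.22 SE, edgeR adjusted p = 0.0189) and cry5 1.95-fold higher (1.51 to 2.51; log2 0.96 ± 0.18 SE, edgeR adjusted p = 0.00371), in a comparison that called 1.88% of genes higher. Muscle markers summed to 4430 to 17965 CPM (median 12143 CPM) in fluoxetine stressed heads and to 1662 to 11555 CPM (median 4120 CPM) in vehicle stressed heads; 0 of 13 passed, with a median log2 fold change of 1.0999 against 0.01 over all genes tested. Photoreceptor and pineal markers summed to 5926 to 7182 CPM in fluoxetine and 5630 to 10467 CPM in vehicle stressed heads. The part of these markers in the result was not tested.

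Among unstressed larvae PER2 was lower in fluoxetine than in vehicle heads. Its 6 fluoxetine libraries (19.9 to 43.004 CPM) overlapped with the vehicle libraries (38.1 to 115 CPM) in 2 replicates, 2 and 3, at 43.004 and 42.5 CPM. Its fold was 0.573 (0.416 to 0.790; log2 -0.80 ± 0.22 SE, edgeR adjusted p = 0.0294), where 7.26% of genes were called lower. Without replicate 6 of the vehicle group the fold was 0.736, with an adjusted p of 0.0496, and without the muscle-rich replicates 1 to 3 it was 0.483 (adjusted p = 0.0258). Over all 24 libraries left out in turn the adjusted p ran between 0.0116 and 0.0679, and it missed the threshold without replicate 1, 4 or 5 of the fluoxetine or replicate 3 of the vehicle unstressed heads. Fitted on these 2 groups alone it did not pass (adjusted p = 0.193). In the same comparison 3 of 13 muscle markers were lower and 4 of 21 photoreceptor and pineal markers higher, where 720 of the 20260 genes were called higher, and their part in the result was not tested. cry5 did not pass in unstressed larvae, with 3.504 to 5.64 CPM in fluoxetine and 3.46 to 9.30 CPM in vehicle heads and a fold of 0.812 (0.6251 to 1.05; edgeR adjusted p = 0.262), nor without replicate 6 (log2 -0.08, adjusted p = 0.742) or replicates 1 to 3 (log2 -0.48, adjusted p = 0.193) of the vehicle group.

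The test of whether fluoxetine changed the stress response of larval heads was positive for both genes, by a small margin in adjusted p. The ratio of the fluoxetine to the vehicle stress fold was 3.31 for PER2 (2.11 to 5.21; log2 1.73 ± 0.32 SE, edgeR adjusted p = 0.0296) and 2.4001 for cry5 (1.67 to 3.45; log2 1.26 ± 0.25 SE, edgeR adjusted p = 0.0446). Only 23 of 20260 genes, 0.114%, passed upward in this interaction, PER2 in place 6 and cry5 in place 20 by p-value. The size of the interaction was steadier than its call. With 1 library left out at a time the log2 value stayed between 1.37 and 1.82 for PER2 and between 1.04 and 1.36 for cry5, but the adjusted p passed the threshold in 11 of 24 cases for PER2 (0.00379 to 0.0744) and in 3 of 24 for cry5 (0.0111 to 0.117), those 3 being the fits without replicate 4, 5 or 6 of the vehicle unstressed heads. With replicate number as a block neither passed (adjusted p = 0.118 for PER2 and 0.121 for cry5). Without replicate 6 of the vehicle unstressed heads both passed, with log2 values of 1.37 for PER2 and 1.04 for cry5 (adjusted p = 0.00379 and 0.0170), and without its muscle-rich replicates 1 to 3 both passed as well, with 1.98 and 1.44 (adjusted p = 0.00931 and 0.0189). Of the muscle markers 0 of 13 passed in this interaction, with a median log2 value of 2.04 against 0.02 over all genes tested.

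In the hypothalamus of vehicle adults, stress raised both genes, and cry5 by the larger fold. PER2 ranged from 239.9 CPM over 275 to 284 CPM in vehicle stressed libraries, against 103, 112 and 137 CPM in vehicle unstressed ones. The lowest stressed library, replicate 1, lay above the highest unstressed one, replicate 6. The fold was 2.29 (2.01 to 2.61), with a log2 fold change of 1.19 ± 0.09 (SE; edgeR, adjusted p = 9.72e-10). cry5 ranged from 13.96 CPM over 14.99 to 17.2 CPM in vehicle stressed libraries, against 3.52, 3.82 and 4.96 CPM in vehicle unstressed ones. All stressed libraries stood clear of the unstressed ones, replicate 1 being the highest of either group. Its fold was 3.75 (3.17 to 4.43), a log2 fold change of 1.91 ± 0.12 (SE; edgeR, adjusted p = 2.26e-11). Many genes passed in this comparison, 20.3% of those tested upward, and cry5 held place 10 and PER2 place 31 of 18380 by p-value. Markers of the hypothalamus itself moved with it: they summed to 382 to 738 CPM (median 577 CPM) in vehicle stressed and 705 to 994 CPM (median 795 CPM) in vehicle unstressed libraries, with 10 of 17 called lower and 2 higher, where 16.5% of all genes were called lower. Their part in the result was not tested.

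The telencephalon of vehicle adults gave nearly the same folds. PER2 ranged from 295 CPM over 328 to 353 CPM in vehicle stressed libraries, against 125, 134 and 154 CPM in vehicle unstressed ones, without overlap. The fold was 2.38 (2.14 to 2.65; log2 1.25 ± 0.07 SE, edgeR adjusted p = 3.73e-12). cry5 ranged from 8.30 CPM over 11.2 to 12.03 CPM in vehicle stressed libraries, against 1.69, 2.64 and 3.94 CPM in vehicle unstressed ones. Replicate 4 was the lowest library of its group in both, and the groups did not overlap. Its fold was 4.04 (3.16 to 5.15; log2 2.01 ± 0.17 SE, edgeR adjusted p = 2.59e-09), where 15% of the genes tested passed upward. Counts of cry5 were low in these tissues, 26 to 61 per library in vehicle unstressed telencephalon, against 1918 to 2370 for PER2.

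In adults that had been exposed to fluoxetine as larvae, stress still raised PER2, and no change of cry5 passed the test. In the hypothalamus PER2 ranged from 188 CPM over 223 to 252 CPM in fluoxetine stressed libraries, against 112, 126 and 154 CPM in fluoxetine unstressed ones. The groups were separate, with a fold of 1.70 (1.496 to 1.94; log2 0.77 ± 0.09 SE, edgeR adjusted p = 3.76e-06), in a comparison that called 3.6% of genes higher. cry5 ranged from 4.29 CPM over 4.55 to 4.94 CPM in fluoxetine stressed libraries, against 3.44, 4.69 and 5.43 CPM in fluoxetine unstressed ones. The stressed libraries lay inside the range of the unstressed ones. Its fold was 1.01, with a 95% interval of 0.855 to 1.19 (log2 0.01 ± 0.12 SE, edgeR adjusted p = 0.962), an interval whose upper end lies below the 3.17 at the lower end of the interval in vehicle fish.

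The telencephalon of fluoxetine adults looked alike. PER2 ranged from 301 CPM over 334 to 357 CPM in fluoxetine stressed libraries, against 134, 148 and 171 CPM in fluoxetine unstressed ones. There was no overlap, and the fold was 2.18 (1.96 to 2.42; log2 1.12 ± 0.07 SE, edgeR adjusted p = 7.44e-11), with 6.35% of genes called higher. cry5 ranged from 2.49 CPM over 3.28 to 4.01 CPM in fluoxetine stressed libraries, against 3.001, 3.70 and 5.20 CPM in fluoxetine unstressed ones. The ranges overlapped, 3 stressed libraries lying below the lowest unstressed one. The fold was 0.867 (0.681 to 1.102; log2 -0.21 ± 0.17 SE, edgeR adjusted p = 0.438).

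**Figure D2:**
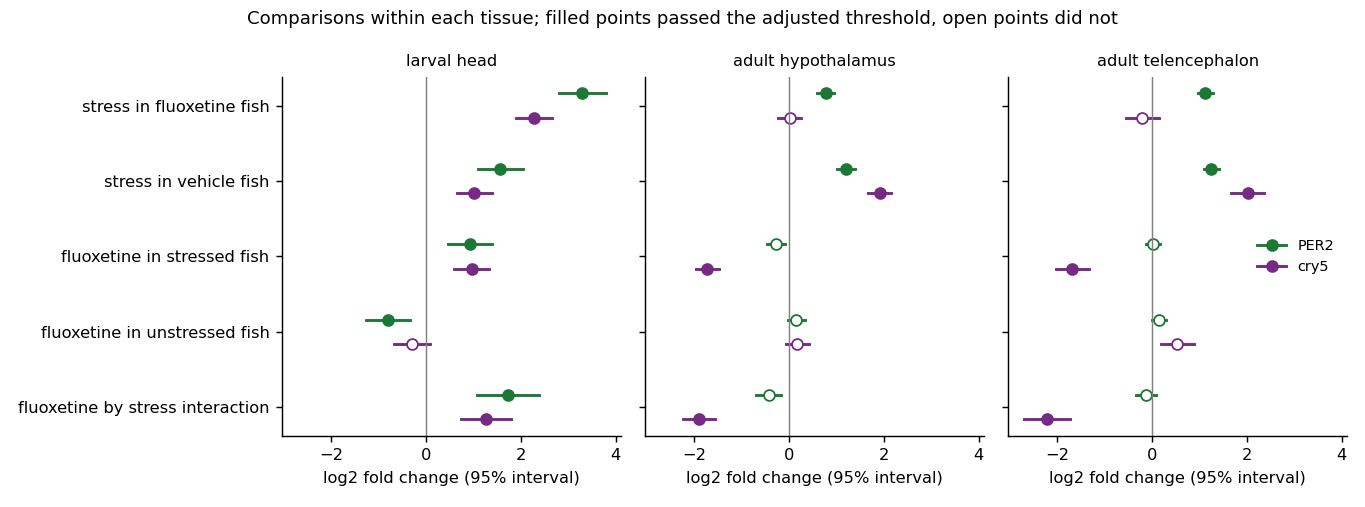
Log2 fold change (horizontal axis) of PER2 and cry5 in the 5 comparisons of each tissue, with 95% intervals from the edgeR fit; stress rows are stressed over unstressed, fluoxetine rows are fluoxetine over vehicle, and the last row is the fluoxetine minus the vehicle stress response. In larval heads both interactions are positive (1.73 for PER2 and 1.26 for cry5), while in the adult regions cry5 lies at -1.89 and -2.22 and PER2 does not pass.

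Among stressed adults, cry5 was lower after fluoxetine in both regions. Fluoxetine stressed hypothalamus had 4.29 to 4.94 CPM of cry5, against 13.96 to 17.2 CPM in vehicle stressed hypothalamus, a fold of 0.302 (0.256 to 0.356; log2 -1.73 ± 0.12 SE, edgeR adjusted p = 2.76e-10). Of all genes tested 1.26% were called lower there, and cry5 was in place 5 by p-value. In fluoxetine stressed telencephalon cry5 lay at 2.49 to 4.01 CPM, against 8.30 to 12.03 CPM in vehicle stressed telencephalon, a fold of 0.311 (0.245 to 0.394; log2 -1.69 ± 0.17 SE, edgeR adjusted p = 2.51e-07), with 2.35% of genes called lower. The groups were separate in both regions. PER2 of the same libraries overlapped between exposures. In stressed hypothalamus its fold of fluoxetine over vehicle was 0.828 (0.727 to 0.941; edgeR adjusted p = 0.127) and in stressed telencephalon 1.01 (0.908 to 1.12; edgeR adjusted p = 0.943). The hypothalamus difference did pass when library number range or replicate number was a term of the fit (log2 -0.28 in each, adjusted p = 0.0389 and 0.0449), and over the libraries left out in turn its adjusted p ran between 0.087 and 0.243.

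Without stress, neither gene passed for fluoxetine in adults in the fit of 4 groups, and for cry5 in the telencephalon the call depended on the fit. In unstressed hypothalamus the fold of fluoxetine over vehicle was 1.11 for PER2 (0.976 to 1.27; edgeR adjusted p = 0.222) and 1.12 for cry5 (0.950 to 1.33; edgeR adjusted p = 0.305), while 16.5% of all genes passed upward and 7.89% downward. In unstressed telencephalon it was 1.101 for PER2 (0.990 to 1.22; edgeR adjusted p = 0.211), with 4.88% of all genes higher and 2.93% lower. cry5 came close to the threshold there, with 3.001 to 5.20 CPM in fluoxetine and 1.69 to 3.94 CPM in vehicle libraries and a fold of 1.45 (1.13 to 1.85; log2 0.53 ± 0.17 SE, edgeR adjusted p = 0.0542). Its ranges overlapped, and the call turned with single libraries: it passed in 3 of the 24 fits with 1 telencephalon library left out (adjusted p between 0.0355 and 0.136), those without replicate 6 of the fluoxetine or replicate 2 or 3 of the vehicle unstressed group. It also passed with replicate number as a block (log2 0.55, adjusted p = 0.0412), with library number range as a term (0.55, adjusted p = 0.0414) and by DESeq2 (0.51, adjusted p = 0.0371).

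The adult interactions were negative and large for cry5. The ratio of the fluoxetine to the vehicle stress fold was 0.269 in the hypothalamus (0.213 to 0.340; log2 -1.89 ± 0.16 SE, edgeR adjusted p = 9.55e-08), where 0.332% of genes passed downward and cry5 was in place 4. That share was 61 genes, against 789 without replicate 1 of the vehicle stressed hypothalamus, and the upward calls were 33, against 167 without it. In the telencephalon the ratio was 0.215 (0.153 to 0.302; log2 -2.22 ± 0.24 SE, edgeR adjusted p = 2.41e-06), where 0.555% passed downward and cry5 was in place 11. For PER2 this ratio was 0.745 in the hypothalamus (0.620 to 0.894; edgeR adjusted p = 0.154) and 0.916 in the telencephalon (0.789 to 1.06; edgeR adjusted p = 0.66), and neither passed. The first passed without replicate 1 of the vehicle stressed hypothalamus (adjusted p = 0.0355), and in 0 of the other 23 fits with 1 library left out, where the adjusted p reached 0.261.

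Adult library numbers fall into a range of 1 to 24, which holds replicates 1 to 3 of every group, and a range of 25 to 48 with replicates 4 to 6. What separates them is not given in the sources used here, so every adult comparison was also fitted inside each. The stress response of PER2 in fluoxetine fish had log2 values of 0.84 (lower range) and 0.71 (upper range) for hypothalamus and of 1.11 and 1.15 for telencephalon, and in vehicle fish of 1.29 and 1.099 in the hypothalamus and 1.28 and 1.21 in the telencephalon. For cry5 in vehicle fish the values were 1.90 and 1.90 in the hypothalamus and 1.87 and 2.19 in the telencephalon. All of these passed inside both ranges. The difference of cry5 between fluoxetine and vehicle stressed fish was -1.78 in the lower and -1.67 in the upper range for hypothalamus and -1.77 and -1.59 for telencephalon, and passed in each. Its interaction was -1.999 and -1.77 in the hypothalamus, where the upper range missed the threshold (adjusted p = 0.0896 with 3 libraries a group), and -1.90 and -2.56 in the telencephalon. The near-threshold difference of cry5 between fluoxetine and vehicle unstressed telencephalon was 0.13 in the lower and 0.97 in the upper range, neither passing.

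Marker lists gave the following in the adult comparisons. Of the photoreceptor and pineal markers, 0 of 21 passed in either stress comparison of the hypothalamus. Of all genes, 3.6% were called higher and 2.89% lower there in fluoxetine fish, and 20.3% and 16.5% in vehicle fish. In the telencephalon 3 of 22 were lower with stress in fluoxetine fish, where 7.26% of all genes were called lower, and 2 of 22 higher in vehicle fish, where 15% were called higher. In fluoxetine against vehicle stressed telencephalon 2 of 22 were lower, beside 2.35% of all genes. Their summed level varied widely within every adult group, for example from 12.3 to 673 CPM in fluoxetine stressed and from 58.97 to 3052 CPM in vehicle stressed telencephalon. Of the muscle markers 3 of 9 were lower with stress in vehicle hypothalamus, beside 16.5% of all genes, with sums of 45.5 to 99.5 CPM in stressed and 78.02 to 276 CPM in unstressed libraries. Hypothalamus markers were lower for 10 of 17 in fluoxetine than in vehicle unstressed hypothalamus, beside 7.89% of all genes. Among stressed fish they were lower for 0 of 17, beside 1.26% of all genes. With stress in fluoxetine hypothalamus 4 of 17 were lower and 1 higher (2.89% and 3.6% of all genes). Telencephalon markers in the telencephalon were lower for 4 of 11 with stress in fluoxetine fish and for 6 of 11 in vehicle fish, beside 7.26% and 11.8% of all genes, with 1 of 11 higher in vehicle fish. The part of these markers in the results was not tested.

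A fit over all 72 libraries compared the tissues with each other. It used 1 estimate of spread per gene for all tissues, although spread differed between them. For PER2 with stress in fluoxetine fish, the SE within a tissue was 0.24 in larval heads, 0.09 in hypothalamus and 0.07 in telencephalon. In such a case p-values of the shared fit can be too small for larval heads and too large between adult regions. Age and tissue cannot be told apart between larval heads and adult regions. In unstressed vehicle fish PER2 was lower in larval heads than in the mean of the adult regions, with a fold of 0.431 (0.358 to 0.519; edgeR adjusted p = 1.46e-12), and cry5 was 1.66-fold higher (1.38 to 2.01; edgeR adjusted p = 1.60e-06). Such differences were common, with 33% of genes called lower and 46.6% called higher in larval heads. Without the high replicate 6 of the larval group the folds were 0.332 for PER2 and 1.41 for cry5, and without its muscle-rich replicates 1 to 3 they were 0.5002 and 1.84. Between the adult regions, cry5 was 1.52-fold higher in unstressed vehicle hypothalamus than telencephalon (1.21 to 1.92; edgeR adjusted p = 0.00271), where 13.6% of genes passed upward, and PER2 did not differ past the threshold (fold 0.846, 0.691 to 1.04; edgeR adjusted p = 0.227).

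By p-value in the shared fit, the stress response of fluoxetine fish differed between larval heads and adult regions most for these 2 genes. PER2 was in place 1 and cry5 in place 2 of 21297. For PER2 the SE of this difference, 0.18, was below the 0.24 of its larval stress response alone, so its p-value can be too small. The larval stress fold was 5.10 times the mean adult one for PER2 (3.96 to 6.57; log2 2.35 ± 0.18 SE, edgeR adjusted p = 3.05e-15) and 5.18 times for cry5 (3.96 to 6.77; log2 2.37 ± 0.19 SE, edgeR adjusted p = 1.48e-14), in a comparison that called 2.44% of genes higher. In vehicle fish the order was the reverse for cry5, whose larval stress fold was 0.524 of the adult one (0.403 to 0.681; log2 -0.93 ± 0.19 SE, edgeR adjusted p = 0.000146), with 20.8% of genes called lower. Its log2 value was -0.68 without replicate 6 of the vehicle unstressed heads and -1.09 without replicates 1 to 3, and it passed in both fits (adjusted p = 0.00211 and 0.000265). PER2 did not pass in vehicle fish (ratio 1.28, 1.002 to 1.65; edgeR adjusted p = 0.111), but did without replicate 6 of the vehicle unstressed heads (ratio 1.68, adjusted p = 1.58e-05), while without replicates 1 to 3 of that group the ratio was 1.095 (adjusted p = 0.718). Over all libraries left out in turn that adjusted p ran up to 0.191.

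The interaction itself, fluoxetine by stress, also differed between larval heads and adult regions, a comparison added after the values had been seen. The difference was 1.99 ± 0.25 on the log2 scale for PER2 (SE; edgeR, adjusted p = 1.04e-07) and 3.31 ± 0.27 for cry5 (SE; edgeR, adjusted p = 3.55e-14), where 2.35% of genes passed upward and cry5 was in place 1. Without replicate 6 of the vehicle unstressed heads the values were 1.59 and 3.04, and without its replicates 1 to 3 they were 2.22 and 3.47. Between hypothalamus and telencephalon no difference in a stress response or interaction passed for either gene. Such differences were rare: 0.131% of genes passed upward and 0.0423% downward in fluoxetine fish, 0.0798% and 0.15% in vehicle fish, and 0% either way for the interaction. The intervals still allow differences. For PER2 in fluoxetine fish, the shared fit gave the region difference an SE of 0.21, so a difference between regions could be missed. For cry5 the ratio of the hypothalamus to the telencephalon stress fold was 1.18 in fluoxetine fish (0.863 to 1.61) and 0.943 in vehicle fish (0.694 to 1.28), and for PER2 0.791 (0.594 to 1.05) and 0.977 (0.734 to 1.30).

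The split between both genes showed most directly in the ratio of their counts within a library, a quantity in which library size cancels and which was added after the values had been seen. With stress in fluoxetine fish the mean log2 ratio of PER2 to cry5 was higher by 1.06 in larval heads (3.85 in stressed and 2.79 in unstressed libraries), by 0.74 in the hypothalamus (5.59 in stressed and 4.85 in unstressed libraries) and by 1.34 in the telencephalon (6.65 in stressed and 5.31 in unstressed libraries). In vehicle fish it was higher by 0.61 in larval heads (3.88 in stressed and 3.27 in unstressed libraries). In vehicle adults the sign turned: the difference was -0.71 in the hypothalamus (4.14 in stressed and 4.85 in unstressed libraries) and -0.80 in the telencephalon (4.94 in stressed and 5.75 in unstressed libraries). Exact two-sided permutation tests of 6 against 6 libraries gave p = 0.00649 for vehicle telencephalon and 0.00216, the smallest value that the arrangements allow, for the other 5 comparisons. Adjusted over the 6 tests these were 0.00649 and 0.0026.

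**Figure D3:**
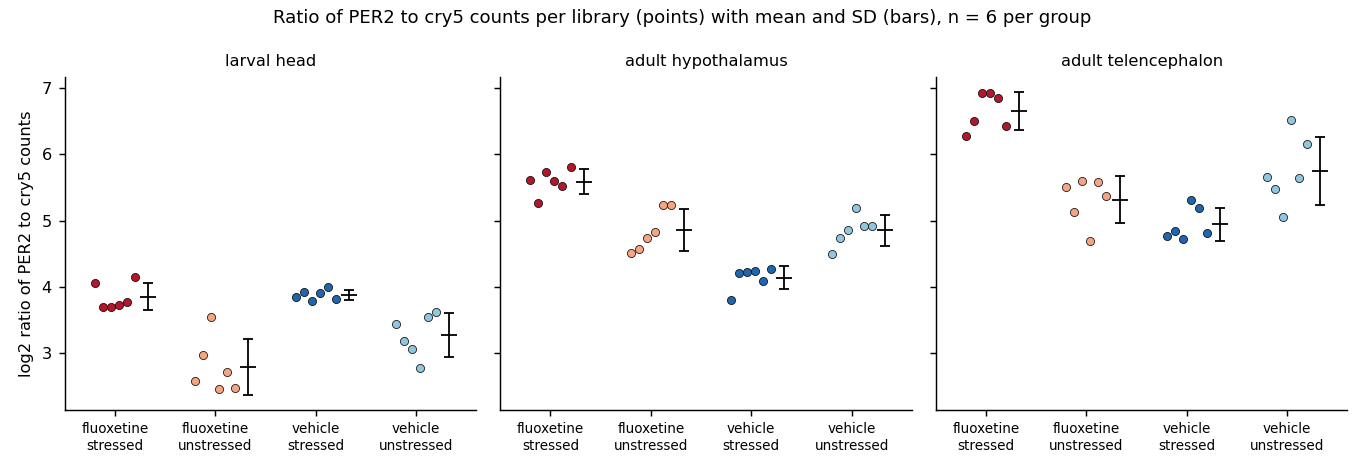
Log2 ratio of PER2 to cry5 counts (vertical axis) in every library by group and tissue, with the mean and SD of 6 libraries beside the points; the ratio is not scaled by gene length, so only its differences between groups carry meaning. In vehicle adults the stressed means lie below the unstressed ones (hypothalamus means of 4.14 against 4.85, telencephalon means of 4.94 against 5.75), and in the other 4 pairs the mean of the stressed libraries lies above that of the unstressed ones.

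Over all 24 libraries of a tissue, group differences included, log2 CPM of PER2 and cry5 had a Pearson correlation of 0.96 for larval heads, 0.73 for hypothalamus and 0.54 for telencephalon. Among libraries of the same group, with group means removed, the 2 genes did not deviate together past the threshold over all 24 libraries of any tissue. In larval heads r was 0.67 and rho 0.48 (n = 24, permutation p = 0.0258 and 0.0487, adjusted over 3 tissues 0.0773 and 0.121). The 2 libraries farthest from the median of PER2, taken after group means were removed, were replicate 6 of the vehicle unstressed and of the fluoxetine unstressed heads. Without them r was 0.21, so the relation rests on those. In the hypothalamus r was -0.03 and rho -0.08 (permutation p = 0.908 and 0.75), and in the telencephalon r was -0.38 and rho -0.37 (permutation p = 0.103 and 0.0803); without the 2 farthest libraries r was -0.42 and -0.39. Single libraries turned these calls: r passed in larval heads without replicate 3 of the fluoxetine unstressed group (0.80, adjusted permutation p = 0.0149), and in the telencephalon without replicate 3 of the fluoxetine stressed (-0.50, adjusted permutation p = 0.0478) or replicate 1 of the fluoxetine unstressed group (-0.48, adjusted permutation p = 0.0451). In larval heads without replicate 6 of the vehicle unstressed group r was 0.33 (adjusted permutation p = 0.439).

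**Figure D4:**
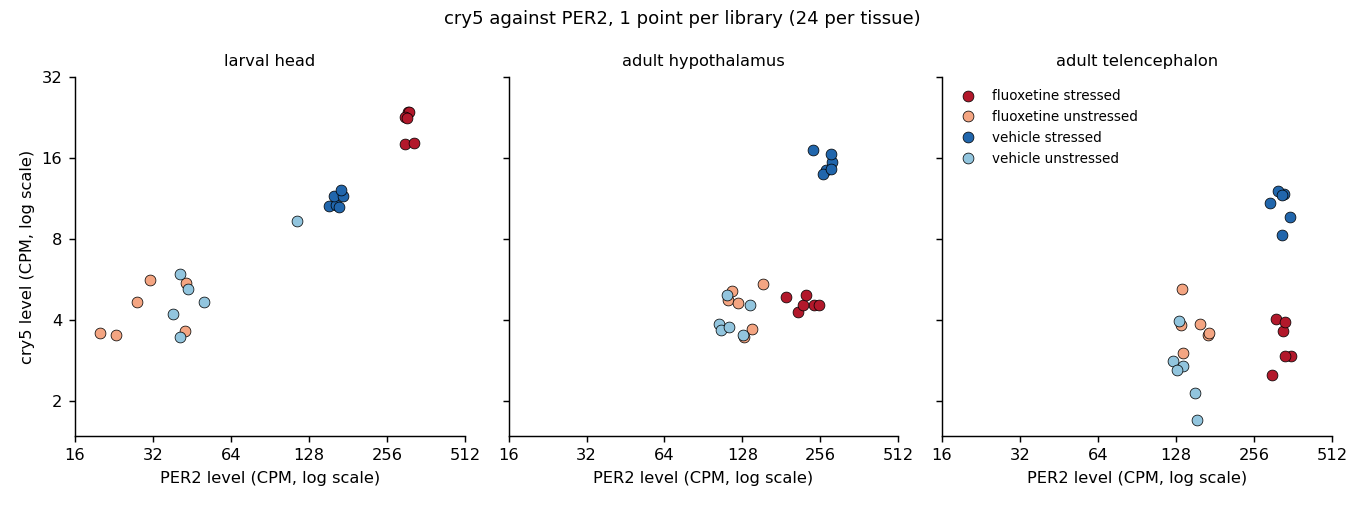
cry5 against PER2 in CPM on log axes, 1 point per library and 24 per tissue, coloured by group. In larval heads the 4 groups line up along a rising diagonal (r of 0.96). In both adult regions the fluoxetine stressed libraries have PER2 above all unstressed libraries and the cry5 levels of unstressed fish. In the hypothalamus their PER2 (188 to 252 CPM) lies partly below that of vehicle stressed libraries (239.9 to 284 CPM).

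The genes whose levels followed each member most closely were different ones. Likeness was taken as the lowest of the 3 correlations of log2 CPM within a tissue, over 24 libraries each and among 17418 genes. Group differences were left in, so a high value can come from shared differences between groups rather than between libraries of a group. For PER2 the 5 highest were SLC16A6 (0.92), a monocarboxylate transporter, NEDD9 (0.88), an adhesion scaffold protein, PFKFB4 (0.87), an enzyme that sets the level of a glycolytic regulator, hif1al (0.87), a hypoxia-inducible factor subunit by name, and the salt-inducible kinase SIK2 (0.86). For cry5 they were cry-dash (0.85), a DASH-type member of the cryptochrome and photolyase family, lonrf4 (0.85), cpdp (0.85), whose synonym phr is that of the photolyase for cyclobutane pyrimidine dimers, and the cryptochromes cry3a (0.84) and cry3b (0.82). By this measure cry5 was in place 237 for PER2, and PER2 in place 158 for cry5, with 0.54 in both. No sequences were compared here, so whether reads of genes with like names, such as cry3a and cry3b, split between them was not checked.

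Other genes known as light-inducible in zebrafish, or near relatives of such genes, were listed for comparison. Of the 11 besides PER2 and cry5, 5 rose with stress in larval heads of fluoxetine fish and 0 fell (median log2 0.77, against -0.03 over all genes tested, of which 1.9% rose and 0.439% fell). In vehicle fish 5 rose and 0 fell (0.43 against -0.03, with 5.82% of all genes rising and 15.4% falling). In the hypothalamus 1 rose and 0 fell with stress in fluoxetine fish (-0.07 against -0.0023, with 3.6% of all genes rising and 2.89% falling), and 6 rose and 2 fell in vehicle fish (0.69 against -0.01, with 20.3% rising and 16.5% falling). In the telencephalon 2 rose and 1 fell in fluoxetine fish (-0.10 against -0.02, with 6.35% of all genes rising and 7.26% falling), and 6 rose and 2 fell in vehicle fish (0.51 against -0.0048, with 15% rising and 11.8% falling).

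cpdp, the other photolyase of the list, rose with stress in vehicle adults and did not pass in fluoxetine adults. With stress in fluoxetine adults its log2 change was 0.26 ± 0.09 in the hypothalamus (adjusted p = 0.0722) and 0.11 ± 0.09 in the telencephalon (adjusted p = 0.434), and in vehicle adults 1.46 ± 0.09 (adjusted p = 2.20e-11) and 1.36 ± 0.09 (adjusted p = 1.09e-11). Between fluoxetine and vehicle stressed adults it was lower by log2 values of -1.135 ± 0.09 in the hypothalamus and -1.26 ± 0.09 in the telencephalon (adjusted p = 3.39e-09 and 2.03e-10). The family member cry-dash did likewise, with 0.11 ± 0.10 and 0.05 ± 0.10 in fluoxetine adults (adjusted p = 0.504 and 0.781) and 1.23 ± 0.10 in vehicle adults of either region (adjusted p = 1.51e-09 in the hypothalamus and 9.26e-10 in the telencephalon). Its interaction was -1.12 in the hypothalamus and -1.18 in the telencephalon (adjusted p = 2.66e-05 and 1.16e-05).

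The RING finger gene lonrf1, NEIL1, a glycosylase of base excision repair, and tefa, a PAR bZIP factor whose family binds D-box elements, also rose with stress in vehicle adults. Their log2 changes in fluoxetine and in vehicle hypothalamus were 0.16 and 0.78 for lonrf1, -0.07 and 0.84 for NEIL1, and -0.14 and 0.69 for tefa. In fluoxetine adults none of these 3 passed in either region (adjusted p between 0.304 and 0.811). Their interaction passed for lonrf1 and NEIL1 in both regions, and for tefa in neither (adjusted p = 0.128 in the hypothalamus and 0.147 in the telencephalon). The repressors BHLHE40 and BHLHE41, which act on E-box elements, fell with stress in vehicle adults, BHLHE41 by log2 values of -1.72 (hypothalamus) and -1.41 (telencephalon), and did not pass in fluoxetine adults (-0.26 and -0.18 for BHLHE41, -0.23 and -0.17 for BHLHE40). Their interactions were positive, 1.47 and 1.22 for BHLHE41 (adjusted p = 4.27e-06 and 1.02e-07) and 0.59 and 0.67 for BHLHE40 (adjusted p = 0.00318 and 4.38e-05).

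The entry nfil3-6 is one of several zebrafish relatives of the bZIP repressor NFIL3. Like PER2, it rose in all 6 stress comparisons, in fluoxetine fish by log2 values of 2.06 for larval heads, 1.32 for the hypothalamus and 1.76 for the telencephalon, and in vehicle fish by 2.51, 1.99 and 2.36. Its interaction passed in the telencephalon (-0.60, adjusted p = 0.0212) but not in the hypothalamus (-0.67, adjusted p = 0.18). In larval heads lonrf1 and cry-dash rose with PER2 and cry5 in both exposures, by 1.79 and 1.08 in fluoxetine and by 1.15 and 0.43 in vehicle fish. XPC and DDB2, which recognise ultraviolet lesions for excision repair, passed in 1 larval stress comparison each, XPC in fluoxetine fish (0.90, adjusted p = 0.000782) and DDB2 in vehicle fish (0.74, adjusted p = 0.0295). BHLHE40 rose in vehicle larval heads (0.80, adjusted p = 0.0332), cpdp in fluoxetine ones (0.47, adjusted p = 0.00632), and tefb in neither (0.13 in fluoxetine and 0.28 in vehicle fish). None of the 11 passed in the larval interaction, where only 0.114% of all genes passed upward and 0.0197% downward. In adults tefb rose with stress in fluoxetine telencephalon (0.39, adjusted p = 0.0378) and DDB2 fell there (-0.36, adjusted p = 0.0449), with changes of 0.16 and 0.04 in vehicle telencephalon that did not pass. In the hypothalamus neither passed with stress, at -0.02 and -0.34 in fluoxetine and 0.31 and 0.08 in vehicle fish. XPC did not pass in any adult stress comparison (log2 values of -0.18 and -0.29 in fluoxetine and -0.04 and -0.06 in vehicle hypothalamus and telencephalon). The interaction passed for none of these 3 genes in adults. Of all genes, 0.18% passed upward and 0.332% downward in the hypothalamus, and 0.245% and 0.555% in the telencephalon.

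**Figure D5:**
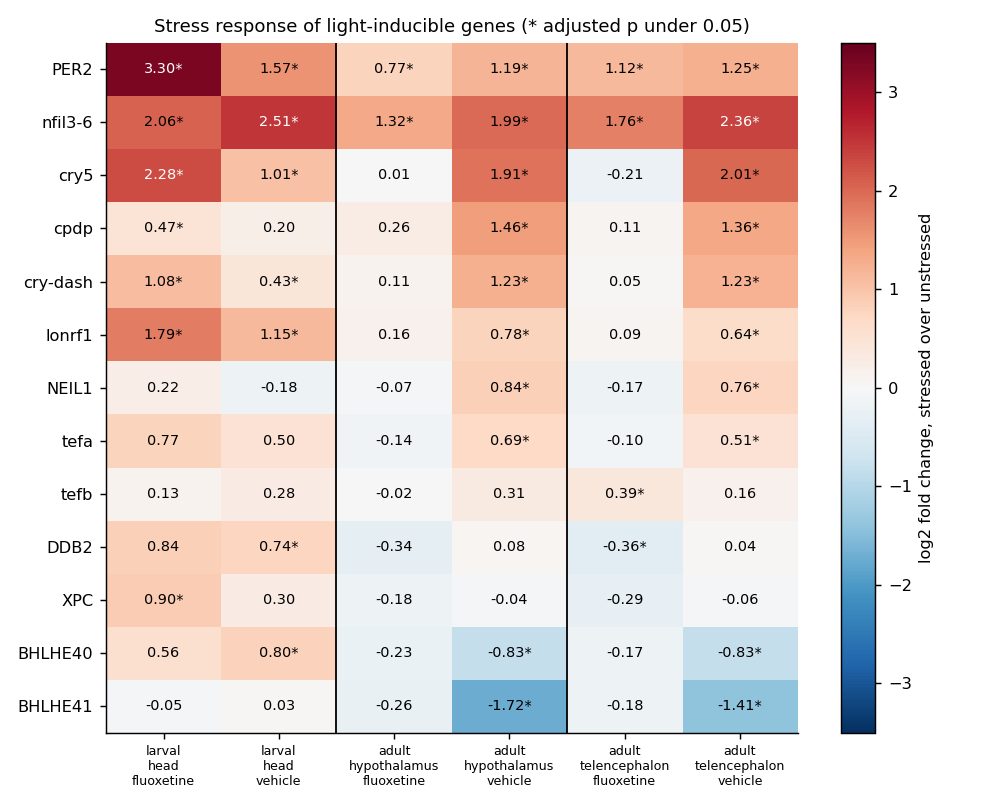
Log2 fold change, stressed over unstressed, of PER2, cry5 and the 11 other light-inducible genes (rows) in the 6 stress comparisons (columns); colour gives sign and size and an asterisk an adjusted p under 0.05. PER2 and nfil3-6 are raised in all 6 columns, while cry5, cpdp, cry-dash, lonrf1, NEIL1 and tefa are raised in the vehicle and not in the fluoxetine columns of the adult regions.

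The wider clock gene lists, 50 genes besides PER2 and cry5 and partly the same as those above, moved in both directions. With stress in fluoxetine larval heads 14 of the 48 tested rose and 0 fell (1.9% and 0.439% of all genes), and in vehicle larval heads 22 rose and 0 fell (5.82% and 15.4%). In fluoxetine hypothalamus 8 of 49 rose and 1 fell (3.6% and 2.89% of all genes), and in vehicle hypothalamus 23 rose and 15 fell (20.3% and 16.5%). In fluoxetine telencephalon 14 of 49 rose and 4 fell (6.35% and 7.26% of all genes), and in vehicle telencephalon 25 rose and 11 fell (15% and 11.8%). The fluoxetine by stress interaction passed for 0 of 48 in larval heads, where 0.114% of all genes passed upward and 0.0197% downward. It passed for 9 upward and 12 downward in the hypothalamus (0.18% and 0.332% of all genes) and for 9 upward and 11 downward in the telencephalon (0.245% and 0.555%). The cryptochrome cry3b, a repressor of the clock activators, rose with stress by log2 values of 2.166 in fluoxetine and 2.02 in vehicle larval heads, and by 2.32 in the hypothalamus and 1.40 in the telencephalon of vehicle adults. In fluoxetine adults it did not pass in the hypothalamus (-0.34, adjusted p = 0.12) and fell in the telencephalon (-0.55, adjusted p = 0.00529), and its interaction was -2.67 in the hypothalamus (adjusted p = 1.35e-09) and -1.95 in the telencephalon (adjusted p = 2.12e-07). The activator npas2 rose in all 6 stress comparisons, by log2 values of 1.39 in larval heads, 1.38 in hypothalamus and 1.06 in telencephalon of fluoxetine fish and by 1.16, 3.88 and 2.70 in the same tissues of vehicle fish. The REV-ERB repressor NR1D1 fell with stress in vehicle hypothalamus (-1.60, adjusted p = 2.13e-08) and vehicle telencephalon (-1.58, adjusted p = 1.63e-11), and its interaction was 1.76 and 1.85 (adjusted p = 1.12e-05 and 8.62e-09). Its relative nr1d2a rose with stress instead, by log2 values of 1.99 in vehicle hypothalamus and 2.08 in vehicle telencephalon. In fluoxetine adults nr1d2a rose by 1.52 and 1.89 in the same regions. Unlike PER2, a PER1 entry (ENSDARG00000012499) fell with stress in vehicle hypothalamus (-1.12, adjusted p = 2.20e-11) and vehicle telencephalon (-0.99, adjusted p = 6.50e-13). It also fell in fluoxetine hypothalamus (-0.36, adjusted p = 0.00154), and its telencephalon interaction was 0.81 (adjusted p = 2.12e-07). Another PER1 entry (ENSDARG00000056885) had a hypothalamus interaction of 1.42 (adjusted p = 2.88e-07). USP2, a deubiquitinase whose transcript follows the clock, rose with stress in fluoxetine larval heads, hypothalamus and telencephalon by log2 values of 0.91, 0.94 and 1.199, and in vehicle ones by 1.11, 1.138 and 1.56, with no interaction past the threshold (adjusted p between 0.149 and 0.491).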

How the data were processed

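Poly(A) RNA of pooled larval heads and adult brain regions was sequenced from stranded libraries, per the labels' protocols, and the submitters' processing notes name bcl2fastq 2.17.1.14, cutadapt, STAR 2.5 and DESeq2. Which program counted the reads, with what strand setting and on which build and annotation, is not given in the sources used here. The authors deposited 1 table of raw counts for 31902 entries and 72 libraries, and these counts were used as deposited. Symbols were matched for 29178 entries, and neither PER2 nor cry5 shares its symbol with another entry. If reads were counted without strand, overlapping antisense transcripts could add to a gene's counts.

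Each tissue was fitted alone over its 24 libraries with edgeR 4.0.16 (R 4.3.3, limma 3.58.1): low counts were filtered by filterByExpr (minimum count 10, minimum total 15), libraries scaled by TMM, and 5 contrasts of the 4 groups tested by robust quasi-likelihood tests. A second fit over all 72 libraries gave 6 comparisons across tissues, and 2 were added after the values had been seen. P-values were adjusted by Benjamini-Hochberg over all genes tested, with a threshold of 0.05, and "adjusted p" without a tool comes from this test. CPM values share 1 TMM scaling over 72 libraries, and log2 CPM used a prior count of 2. Intervals are 95% intervals of the fit. Alternatives were DESeq2 1.42.0 and its size factors, no filter, fits on the 2 groups compared, a replicate block, library number ranges, and leaving out libraries. The fit was checked on simulated counts. Whether replicate numbers pair the samples was not settled. In 0 of 6 pairs of groups per tissue did all same-numbered libraries correlate above 0.1, but a looser pairing would miss that limit too. Best matches with the own number reached 4 of 6 libraries in larval heads and telencephalon and 2 of 6 in the hypothalamus. Pairing between the adult regions was not checked.

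The genes most like PER2 or cry5 were named by rank of the lowest within-tissue correlation, and the listed light-inducible genes are all accounted for. The genes described and the lists were chosen with earlier results of these data known.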

Additional observations from a re-analysis of the deposited data

Results flagged for a closer look

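Replicate 6 of the vehicle unstressed larval heads had a PER2 level of 114.8 CPM, against 38.1 to 50.3 CPM in the other 5 libraries of its group, a gap of 0.841 of the group's whole range. It was the only outlying library among the 24 sets of 6 values checked for PER2 and cry5, and chance alone marks about 1 in 20 such sets. Its cry5 level of 9.30 CPM was also the highest of its group.

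The stress response in larval heads differed from the mean of the adult regions by a test of the difference itself. That test used the fit over all 72 libraries, whose p-values can be too small for larval heads. In fluoxetine fish the log2 difference was 2.35 for PER2 and 2.37 for cry5, larger in larval heads (edgeR adjusted p = 3.05e-15 and 1.48e-14). In vehicle fish it was -0.93 for cry5, smaller in larval heads (edgeR adjusted p = 0.000146). The fluoxetine by stress interaction differed by 1.99 for PER2 and 3.31 for cry5 (edgeR adjusted p = 1.04e-07 and 3.55e-14).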

How the results depend on the processing

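The stress calls of PER2 in all 6 comparisons, and of cry5 in both larval and both vehicle adult comparisons, held in every alternative that was run, as did the lower cry5 in fluoxetine than in vehicle stressed adults. The results near the threshold moved. With the replicate block, the larval interaction of PER2 was 1.67 (adjusted p = 0.118) and of cry5 1.25 (adjusted p = 0.121), the larval difference of PER2 between fluoxetine and vehicle unstressed heads was -0.74 (adjusted p = 0.0838), PER2 in stressed hypothalamus passed at -0.28 (adjusted p = 0.0449), and cry5 in unstressed telencephalon passed at 0.55 (adjusted p = 0.0412). With the library number range as a term the last values were -0.28 (adjusted p = 0.0389) and 0.55 (adjusted p = 0.0414).

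DESeq2 called cry5 in unstressed telencephalon at 0.51 (adjusted p = 0.0371). Without the filter on low counts the larval interaction of cry5 was 1.24 (adjusted p = 0.0615). Fitted on the 2 groups alone, PER2 in unstressed larvae was -0.80 (adjusted p = 0.193) and cry5 with stress in fluoxetine hypothalamus -0.0065, where library numbers 1 to 24 gave -0.10. In those numbers PER2 in stressed telencephalon was -0.00095, and in numbers 25 to 48 the hypothalamus interaction of cry5 was -1.77 (adjusted p = 0.0896). Besides these 2 genes, 345 calls within a tissue were followed for the other light-inducible, clock and check genes and the genes most like either. With 1 library left out, 420 of their 8280 values no longer passed, and 298 of 2575 under the other settings. The causes were not tested.

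With single libraries left out, the larval interaction ran between 1.37 and 1.82 for PER2 and between 1.04 and 1.36 for cry5, PER2 in unstressed larvae between -0.92 and -0.44, cry5 in unstressed telencephalon between 0.42 and 0.68, the hypothalamus interaction of PER2 between -0.48 and -0.36, and the larval minus adult stress response of PER2 in vehicle fish between 0.31 and 0.75. Values near 0 changed sign: PER2 in stressed telencephalon between -0.017 and 0.037, cry5 with stress in fluoxetine hypothalamus between -0.055 and 0.075, and the hypothalamus minus telencephalon stress response in vehicle fish between -0.11 and 0.018 for PER2 and between -0.29 and 0.014 for cry5. The correlation of PER2 and cry5 ran between 0.33 and 0.80 in larval heads, between -0.25 and 0.044 in the hypothalamus and between -0.50 and -0.26 in the telencephalon. Counts over all genes moved more: the larval interaction called 23 genes higher, and 0 to 244 under the alternatives, and the hypothalamus interaction called 61 lower, and 1 to 789 under the alternatives. For fluoxetine in unstressed hypothalamus 3027 genes were higher (1 to 3398) and 1451 lower (0 to 2171). In unstressed telencephalon 897 were higher (0 to 2093) and 538 lower (0 to 1769). The lowest of these adult counts came from a single library number range, with 3 libraries a group. In unstressed larval heads 1471 were lower, and 9 when fitted on the 2 groups alone.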
